A study of Homo sapiens with 8 samples.

Results

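The genes described here are 10 members of the extracellular matrix protease system: the matrix metalloproteinases (MMPs) MMP1, MMP9, MMP10, MMP13, MMP14, MMP15 and MMP25, and the tissue inhibitors of metalloproteinases TIMP1, TIMP2 and TIMP3. They were taken by name from the deposited count table, in which all 10 were found among 16082 genes. Poly(A) RNA was sequenced from KYSE150, a cell line derived from a human squamous carcinoma of the esophagus. The groups were 4 libraries of cells carrying a short hairpin against HNRNPC (labelled ShHNRNPC, here shHNRNPC) and 4 libraries labelled Control, and the labels give no other treatment for either. The HNRNPC protein packages nascent transcripts in the nucleus and affects their splicing. The labels do not say how many hairpins or clones were used, what the control cells carried, or whether the libraries came from separate cultures, so p-values measure only the spread between these libraries, which may be technical.

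MMPs are zinc-dependent proteases that are made as inactive proenzymes and cut collagens, gelatin, other matrix proteins and cell-surface proteins. Most are secreted, whereas a smaller set is held at the plasma membrane by a transmembrane segment (MMP14 and MMP15) or a lipid anchor (MMP25). TIMPs bind the active site of MMPs and block it. TIMP2 also bridges MMP14 to the proenzyme of MMP2 at the cell surface, so that it both restrains MMP14 and takes part in MMP2 activation. In squamous carcinomas MMP1, MMP9, MMP10, MMP13 and MMP14 are known for their part in invasion.

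Library totals ranged from 28323403 to 34913500 counts. HNRNPC was at 33.9 ± 1.81 CPM (read counts scaled to a common library size with TMM factors) in the shHNRNPC libraries and 587 ± 12.5 CPM in the control libraries (SD, n = 4 each), which is 5.78% of control (exact permutation test, two-sided, p = 0.0286, the smallest that 70 assignments allow). The second principal component of log2 CPM, with 4.51% of the variance, gave shHNRNPC replicates 1 and 4 scores of -14.5 and -6.13, while shHNRNPC replicates 2 and 3 scored 8.98 and 12.1 and the control libraries lay between -2.10 and 2.25. The squamous markers KRT5 (1123 ± 13.7 CPM in shHNRNPC and 565 ± 6.60 CPM in control libraries), CDH1 and KRT17 were abundant. Of 10 tested squamous markers 4 rose and 5 fell, beside 38.7% higher and 38.6% lower among all genes tested. Among markers of other cell types, 8 of 9 measured fibroblast markers, 6 of 7 leukocyte markers and 4 of 6 endothelial markers stayed below 1 CPM in every library. A further 1 fibroblast, 5 leukocyte and 2 endothelial markers of the lists were absent from the table, in which no gene was at 0 in all libraries. The fibroblast list summed to 8.45 to 9.58 CPM in shHNRNPC and 3.65 to 3.97 CPM in control libraries, most of it COL1A1. The leukocyte list summed to 2.898 to 3.14 CPM in shHNRNPC and 2.31 to 3.90 CPM in control libraries, and the endothelial list to 2.02 to 3.35 CPM in shHNRNPC and 3.50 to 4.32 CPM in control libraries. The part of these differences in the results was not tested. In such bulk samples fewer cells that express a gene and less RNA per cell cannot be told apart.

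In these cells the members differed widely in level. MMP14, TIMP1, TIMP2 and MMP15 were clearly expressed, and MMP1, MMP9, MMP10 and MMP13 were nearly silent in both groups. MMP25 and TIMP3 lay between, at 1.66 CPM or less in every library. After HNRNPC knockdown MMP15 rose about 2.25-fold, TIMP2 rose 1.45-fold and TIMP3 fell to 7.38% of its control level, while MMP14 and TIMP1 changed by 0.15 and -0.16 on the log2 scale. MMP25 rose at low counts, and the 4 nearly silent genes did not pass the filter on low counts.

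Of the 10 members, 6 passed the filter on low counts and were tested with edgeR's quasi-likelihood test over 12001 genes, with Benjamini-Hochberg adjustment and a threshold of 0.05. All 6 passed it, 4 higher (MMP14, MMP15, MMP25 and TIMP2) and 2 lower (TIMP1 and TIMP3) in shHNRNPC. Of all genes tested, 77.3% were called, 38.7% higher and 38.6% lower, so that a call by itself sets no gene apart here. The CPM ranges of the groups did not overlap for any of the 6, as for 70.8% of all genes tested. TIMP3 passed the filter through the control group and MMP25 through the shHNRNPC group, in which each is high, so the count over tested members supports nothing about the family.

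**Figure D1:**
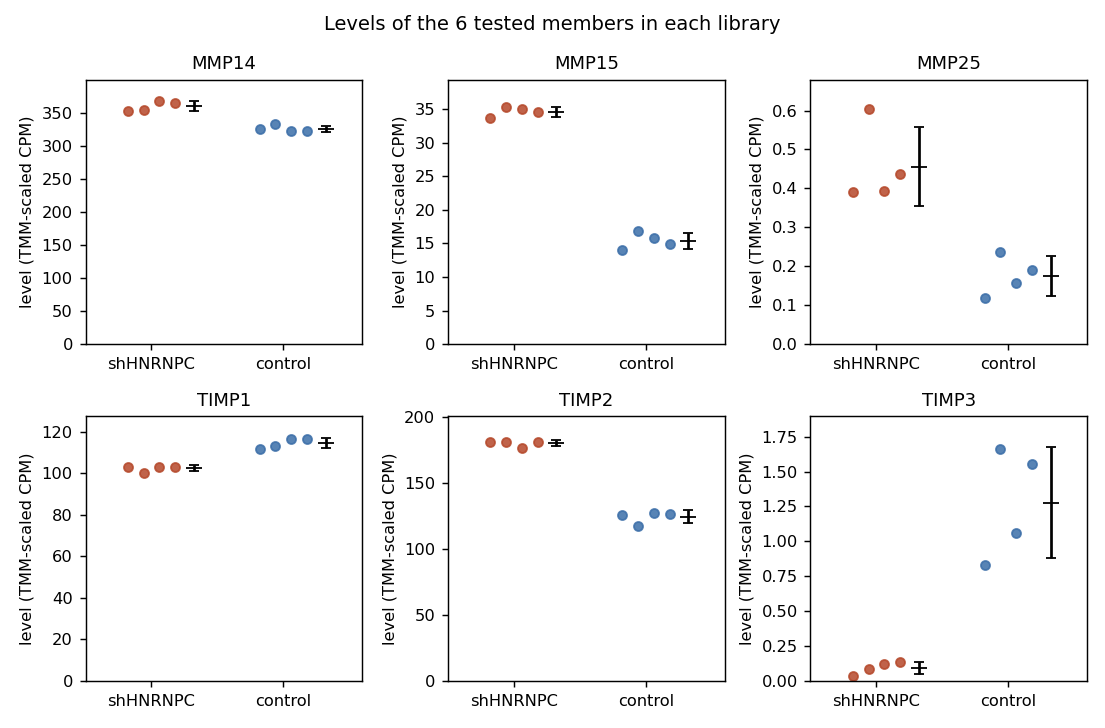
Level in TMM-scaled CPM (vertical axes, each starting at 0) of the 6 tested members in each library, shHNRNPC on the left and control on the right of each panel; points are libraries in replicate order and black marks are the mean and SD (n = 4). No panel shows overlap between the groups, but the gap is small for MMP14 (352.97 to 367.86 against 321.81 to 332.76 CPM) and TIMP1, and wide for TIMP3.

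Among the 7 MMPs that are members, the transmembrane enzymes MMP14 and MMP15 had the highest levels in both groups. MMP14, also called MT1-MMP, cleaves fibrillar collagen at the cell surface and activates the MMP2 proenzyme. It lies on chromosome 14 from 22836585 to 22847758 (RefSeq, GRCh38.p14). Its level was 353, 354, 368 and 365 CPM in shHNRNPC replicates 1 to 4, against 325, 333, 322 and 322 CPM in control replicates 1 to 4. Every shHNRNPC library was above every control library, by a margin that was narrow beside the level itself. On the log2 scale MMP14 rose by 0.15 (SE 0.020, adjusted p = 2.91e-09 by edgeR), which is smaller than the median absolute change of all genes tested, 0.30, and 26.7% of genes changed less.

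MMP15, or MT2-MMP, is the closest relative of MMP14 and is likewise a transmembrane collagenolytic enzyme. It lies on chromosome 16 from 58025754 to 58046901. Its levels in shHNRNPC replicates 1 to 4 were 33.7, 35.4, 35.0 and 34.5 CPM, against 13.95, 16.8, 15.8 and 14.9 CPM in control replicates 1 to 4. The ranges lay far apart, and the replicates varied little, with a coefficient of variation of 2.12% in shHNRNPC and 8.03% in control libraries. MMP15 thus rose by 1.17 log2 units (SE 0.056, adjusted p = 1.03e-28 by edgeR), and 94.2% of the genes tested changed less.

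MMP25, a protease tied to the membrane by a glycolipid anchor and best known from neutrophils, lies on chromosome 16 from 3046561 to 3060726. It was counted 11, 21, 13 and 13 times in shHNRNPC replicates 1 to 4, against 4, 8, 5 and 6 times in control replicates 1 to 4. The groups did not overlap, but all 8 counts are low. The rise was 1.37 in log2 terms, with a wide error (SE 0.444, adjusted p = 0.00452 by edgeR). This call ended when shHNRNPC replicates 2 and 3 were both left out (edgeR adjusted p = 0.0557; range over alternatives 0.00449 to 0.0557), and 35.2% of its exon bases overlap MMP25-AS1 on the opposite strand, whose reads cannot be told apart without a stated strand setting.

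**Figure D2:**
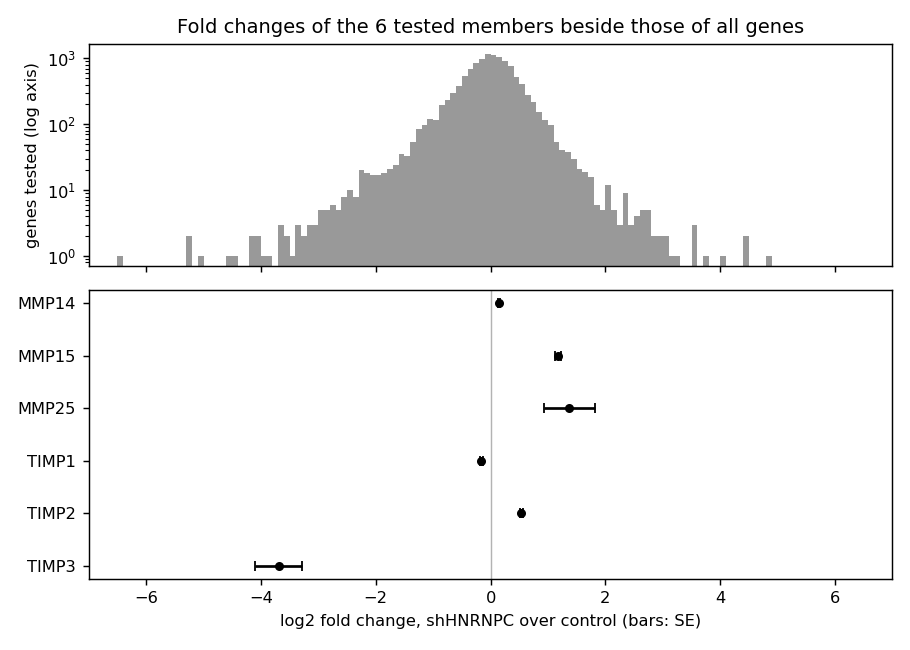
Top, histogram of the log2 fold changes (shHNRNPC over control) of all 12001 genes tested, with a log axis of gene number; bottom, the log2 fold change of each tested member on the same horizontal axis, with its SE as the bar. MMP14 (0.15) and TIMP1 (-0.16) sit in the centre of the histogram, MMP15 (1.17) and MMP25 (1.37) on its upper flank, and TIMP3 (-3.69) far in its lower tail.

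The inhibitors moved in different directions. TIMP1, a secreted inhibitor of most soluble MMPs and a weak one of MMP14, lies on the X chromosome from 47582436 to 47586789. In shHNRNPC replicates 1 to 4 it was at 103, 100.3, 103 and 103 CPM, against 112, 113, 117 and 117 CPM in control replicates 1 to 4. All shHNRNPC libraries were below all control libraries. TIMP1 fell, with a log2 change of -0.16 (SE 0.028, adjusted p = 3.45e-07 by edgeR), in size again below the median absolute change of all genes.

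TIMP2, the inhibitor that pairs with MMP14 in MMP2 activation, lies on chromosome 17 from 78852977 to 78925387. It measured 181, 181, 177 and 181 CPM in shHNRNPC replicates 1 to 4, against 126, 117, 127 and 127 CPM in control replicates 1 to 4. The shHNRNPC libraries were close to each other (SD 2.24 CPM) and all lay above the control libraries (SD 4.84 CPM). TIMP2 rose by 0.53 on the log2 scale (SE 0.026, adjusted p = 2.28e-28 by edgeR), more than 74.1% of the genes tested. Annotated exons of other genes overlap 10.03% of its exon bases.

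TIMP3 differs from the other inhibitors in binding to the extracellular matrix, and it also blocks ADAM17, the sheddase of tumour necrosis factor and of several growth factor precursors. The gene lies on chromosome 22 from 32801705 to 32863041. It was counted 1, 3, 4 and 4 times in shHNRNPC replicates 1 to 4, against 28, 56, 34 and 49 times in control replicates 1 to 4. The highest shHNRNPC library held 0.134 CPM and the lowest control library 0.828 CPM. The levels were 0.0942 ± 0.0440 CPM in shHNRNPC and 1.28 ± 0.397 CPM in control libraries (SD, n = 4 each), so TIMP3 was a minor transcript before it fell. The log2 change of -3.69 (SE 0.412, adjusted p = 3.05e-12 by edgeR) ranked 18 by size among 12001 genes.

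The promoters of MMP15 and TIMP3 are shown because these were the members averaging at least 1 CPM in the higher group that changed most. That of MMP10 is shown because no sequence was held for the other nearly silent enzymes, MMP1, MMP9 and MMP13, and it need not resemble theirs. Each window is the 250 bases before the annotated start, on the strand of the gene, from RefSeq (GRCh38.p14), which held such a sequence for 5 of the 10 members (MMP10, MMP14, MMP15, TIMP1 and TIMP3). Capitals mark GC boxes (GGGCGG on either strand, the core of Sp1 sites) and matches to an AP-1 pattern (TGANTCA, which reads alike on both strands). None of the 5 windows held both, and AP-1 sites that depart from this pattern were not searched for.
TIMP3 (chr22:32801455-32801704, + strand): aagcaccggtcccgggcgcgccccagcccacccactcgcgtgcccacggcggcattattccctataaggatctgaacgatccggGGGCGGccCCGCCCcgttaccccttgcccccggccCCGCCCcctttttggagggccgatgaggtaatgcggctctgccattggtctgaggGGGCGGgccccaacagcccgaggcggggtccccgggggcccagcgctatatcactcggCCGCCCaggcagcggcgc
MMP15 (chr16:58025504-58025753, + strand): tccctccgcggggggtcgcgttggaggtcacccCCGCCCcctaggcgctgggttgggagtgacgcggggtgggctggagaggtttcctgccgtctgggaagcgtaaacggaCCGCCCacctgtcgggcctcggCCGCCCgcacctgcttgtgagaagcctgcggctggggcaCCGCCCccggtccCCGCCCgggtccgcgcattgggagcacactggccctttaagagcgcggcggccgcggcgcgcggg
MMP10 (chr11:102780629-102780878, - strand): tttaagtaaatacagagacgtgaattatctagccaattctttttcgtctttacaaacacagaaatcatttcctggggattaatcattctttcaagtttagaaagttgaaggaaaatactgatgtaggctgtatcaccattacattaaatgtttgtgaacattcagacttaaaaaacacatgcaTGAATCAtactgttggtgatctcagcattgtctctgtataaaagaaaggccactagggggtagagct

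The MMP15 and TIMP3 windows were alike in composition. MMP15 rose and TIMP3 fell, and a link between composition and direction was not tested. MMP15 held 31 CpG dinucleotides, 5 GC boxes and 74.8% G and C, and TIMP3 held 26 CpG, 5 GC boxes and 72.4% G and C. Of 35116 RefSeq promoters, 42.6% held a GC box, the median CpG number was 11 and the median G and C content was 58.0%. MMP14 held 1 GC box and 7 CpG, and TIMP1 2 and 12. The MMP10 window was AT-rich, with 34.4% G and C, 2 CpG and no GC box. Among the 5 windows it alone matched the AP-1 pattern, as TGAATCA with its first base at position -67 from the start. This does not show that the other windows lack AP-1 sites of another form. A match to the pattern was present in 6.57% of all promoters. Such matches describe the letters of the window and were not set against binding data.

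The secreted enzymes MMP1, MMP9, MMP10 and MMP13 did not pass the filter on low counts, and none exceeded 10 counts in any library. MMP1, interstitial collagenase, on chromosome 11 from 102789919 to 102798160, had 0, 1, 2 and 2 counts in shHNRNPC replicates 1 to 4, against 2, 3, 10 and 1 counts in control replicates 1 to 4. The sums were 5 and 16 counts, a ratio by library total of 0.321 (95% exact interval 0.0919 to 0.916, counting error only), but 10 of the 16 control counts came from control replicate 3, and the groups overlapped.

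MMP9, the gelatinase that degrades basement membrane collagen, on chromosome 20 from 46008908 to 46016561, had 6, 1, 2 and 1 counts in shHNRNPC replicates 1 to 4, against 5, 7, 6 and 1 counts in control replicates 1 to 4. Its ratio was 0.540 (interval 0.224 to 1.22). Its counts ranged from 1 to 6 in shHNRNPC and from 1 to 7 in control libraries, and 18.4% of its exon bases overlap another gene. MMP10, stromelysin 2, on chromosome 11 from 102770502 to 102780628, had 1 count in shHNRNPC and 3 in control libraries in all (ratio 0.342, interval 0.00652 to 4.26). MMP13, the collagenase of cartilage and bone that many carcinomas also make, on chromosome 11 from 102942995 to 102955732, had 3 counts in shHNRNPC and 6 in control libraries (ratio 0.513, interval 0.0830 to 2.40).

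All 4 had fewer counts in the shHNRNPC libraries, and the ranges of the groups overlapped for each. The share of all genes below the filter with fewer counts was not taken, so this direction sets none of them apart. With no filter on low counts, over 16082 genes, edgeR gave adjusted p = 0.0893 for MMP1, adjusted p = 0.309 for MMP9, adjusted p = 0.475 for MMP10 and adjusted p = 0.501 for MMP13. Over all genes this fit called 4698 higher and 4895 lower, against 4640 and 4635 with the filter. A library with 0 counts allows up to 3, which is 0.0863 to 0.107 CPM depending on the library.

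**Figure D3:**
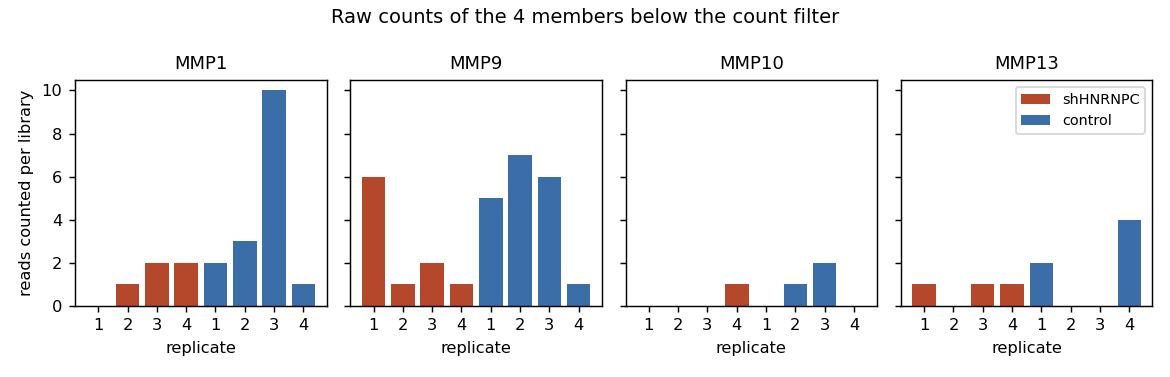
Raw reads counted for MMP1, MMP9, MMP10 and MMP13 (vertical axis, from 0) in shHNRNPC replicates 1 to 4 (left bars) and control replicates 1 to 4 (right bars). No bar exceeds 10, and the tallest is MMP1 in control replicate 3.

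MMP1, MMP10 and MMP13 belong to a cluster of MMP genes on the long arm of chromosome 11, and its other measured genes were low too. The cluster's 7 measured genes (MMP7, MMP8, MMP10, MMP1, MMP3, MMP12 and MMP13, in that order, between 102520508 and 102955732) summed to 14 to 24 counts in a shHNRNPC library and 26 to 46 in a control library. MMP3, stromelysin 1, made up most of this, with 57 counts over the shHNRNPC libraries and 98 over the control libraries. The nearest tested genes on either side were well expressed. TMEM123 had 451 ± 11.2 CPM in shHNRNPC and 359 ± 4.88 CPM in control libraries, and DCUN1D5 had 73.2 ± 4.84 and 84.8 ± 1.68 CPM in shHNRNPC and control libraries (SD, n = 4 each).

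Levels were compared between genes per kilobase of the principal coding transcript in GENCODE release 29. In shHNRNPC libraries the order was TIMP1 (115 ± 1.66 CPM per kb), MMP14 (96.5 ± 2.04), TIMP2 (49.3 ± 0.614), MMP15 (8.15 ± 0.173), MMP25 (0.128 ± 0.0285) and then the remaining members, at most 0.0912 CPM per kb in any library and overlapping one another. In control libraries it was TIMP1 (129 ± 2.79 CPM per kb), MMP14 (87.2 ± 1.35), TIMP2 (34.0 ± 1.33), MMP15 (3.62 ± 0.290) and TIMP3 (0.277 ± 0.0862). Below these, the ranges of MMP25 (0.0494 ± 0.0142 CPM per kb), MMP1, MMP9, MMP10 and MMP13 overlapped. The order of TIMP1 and MMP14 depended on the length used: with the union of all annotated exons, log2 of their ratio was -0.28 in shHNRNPC and 0.030 in control libraries, against 0.25 and 0.56 with the principal transcript.

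The balance between members differed between the groups. The ratio of TIMP2 to MMP14, in CPM per kb, was 0.524, 0.523, 0.490 and 0.507 in shHNRNPC replicates 1 to 4, against 0.396, 0.359, 0.405 and 0.401 in control replicates 1 to 4. The ranges did not overlap. TIMP1 to MMP14 moved the other way, at 1.19 ± 0.0219 in shHNRNPC and 1.48 ± 0.0484 in control libraries. The summed level of the 3 TIMPs overlapped between the groups, at 162 to 165 CPM per kb in shHNRNPC and 160 to 166 CPM per kb in control libraries.

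TIMP1 made up 69.99 ± 0.463% of that sum in shHNRNPC and 78.9 ± 0.557% in control libraries, and TIMP3 made up 0.0125 ± 0.00579% and 0.170 ± 0.0534% in shHNRNPC and control libraries. On the protease side MMP14 held 92.0 ± 0.190% of the summed level of the 7 MMPs in shHNRNPC and 95.8 ± 0.339% in control libraries, and MMP15 held 7.77 ± 0.187% and 3.97 ± 0.271% in shHNRNPC and control libraries. The MMP sum was 105 ± 2.08 CPM per kb in shHNRNPC and 91.0 ± 1.55 CPM per kb in control libraries. Ratios of members are descriptions of RNA levels and were not tested.

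**Figure D4:**
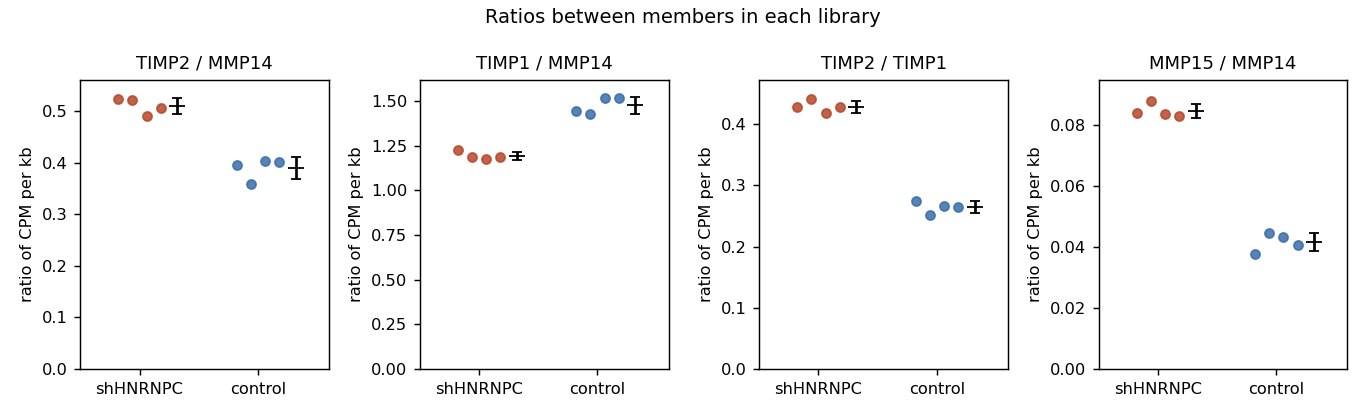
Ratios of CPM per kb (vertical axes, from 0) between pairs of members in each library, shHNRNPC left and control right; points are libraries in replicate order and black marks are the mean and SD (n = 4). TIMP2 gains on both MMP14 and TIMP1, MMP15 gains on MMP14 (0.0845 ± 0.00221 in shHNRNPC against 0.0415 ± 0.00297 in control libraries), and TIMP1 loses ground to MMP14.

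The replicates differed little for the abundant members and much for the rare ones. Coefficients of variation in shHNRNPC and control libraries were 2.11% and 1.55% for MMP14, 1.45% and 2.17% for TIMP1, and 46.7% and 31.1% for TIMP3. Leaving out either pair of shHNRNPC libraries that stood apart kept the calls of 5 of the 6 tested members. Without shHNRNPC replicates 1 and 4 the log2 fold changes were 0.15 for MMP14, 1.20 for MMP15, -0.17 for TIMP1, 0.53 for TIMP2 and -3.58 for TIMP3, and without replicates 2 and 3 they were 0.14, 1.15, -0.15, 0.54 and -3.83, all past the threshold by edgeR. MMP25 was the exception, at 1.495 (edgeR adjusted p = 0.0111) without replicates 1 and 4 and 1.22 (edgeR adjusted p = 0.0557) without replicates 2 and 3.

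By the smallest root mean square difference of centred log2 CPM over the 8 libraries, the genes most like TIMP3 were the adhesion receptor ADGRF4 (0.28, with 0.167 ± 0.0969 CPM in shHNRNPC and 2.10 ± 0.263 CPM in control libraries), the galactosyltransferase B3GALT5 (0.29) and the phospholipase PLCH2 (0.35). Most like MMP15 were the zinc finger gene ZSCAN31 (0.033), the cell adhesion protein CXADR (0.046) and the decapping enzyme DCP2 (0.058). Most like TIMP2 were RAPGEF2 (0.012), an activator of RAP GTPases, the catenin CTNNB1 (0.022) and the DNA polymerase alpha subunit POLA2 (0.025). These distances are dominated by the difference between the groups.

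The rest of the MMP family held genes of both directions, as did all genes tested, of which 38.7% were higher and 38.6% lower. Of 17 further MMP and TIMP genes listed, 14 were in the table and 9 were tested, of which 3 rose, 3 fell and 3 were not called; their median log2 fold change was -0.23, against -0.0057 over all genes tested. MMP2, the gelatinase that MMP14 and TIMP2 activate together, was at 20.8, 20.9, 22.4 and 20.3 CPM in shHNRNPC replicates 1 to 4, against 32.4, 32.2, 31.0 and 31.0 CPM in control replicates 1 to 4 (log2 change -0.58, SE 0.052, adjusted p = 5.7e-16 by edgeR). So MMP2 was lower in each shHNRNPC library while MMP14 and TIMP2 were higher. MMP28, or epilysin, an MMP of keratinocytes, fell most, to 0.544 ± 0.0677 CPM in shHNRNPC against 3.52 ± 0.631 CPM in control libraries (-2.69).

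MMP19 rose (1.07, with 4.09 ± 0.729 CPM in shHNRNPC and 1.95 ± 0.571 CPM in control libraries), as did the membrane type MMP24 (0.55). Of their exon bases, 17.4% for MMP19 and 21.8% for MMP24 overlap other genes. MMP16 also rose (1.23), but it stayed below 1 CPM. It had 22, 21, 15 and 10 counts in shHNRNPC replicates 1 to 4 against 9, 8, 7 and 6 counts in control replicates 1 to 4. MMP16 thus passed the filter on low counts through the group in which it is high. MMP17, the other protease with a lipid anchor, was at 11.7 ± 0.426 and 11.7 ± 0.817 CPM in shHNRNPC and control libraries and was not called (edgeR adjusted p = 0.953). MMP3 was counted among the 3 that fell (-0.71, adjusted p = 0.0496 by edgeR), but its ranges overlapped and most alternatives lost the call. Its edgeR adjusted p was up to 0.291, when control replicate 1 was left out.

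**Figure D5:**
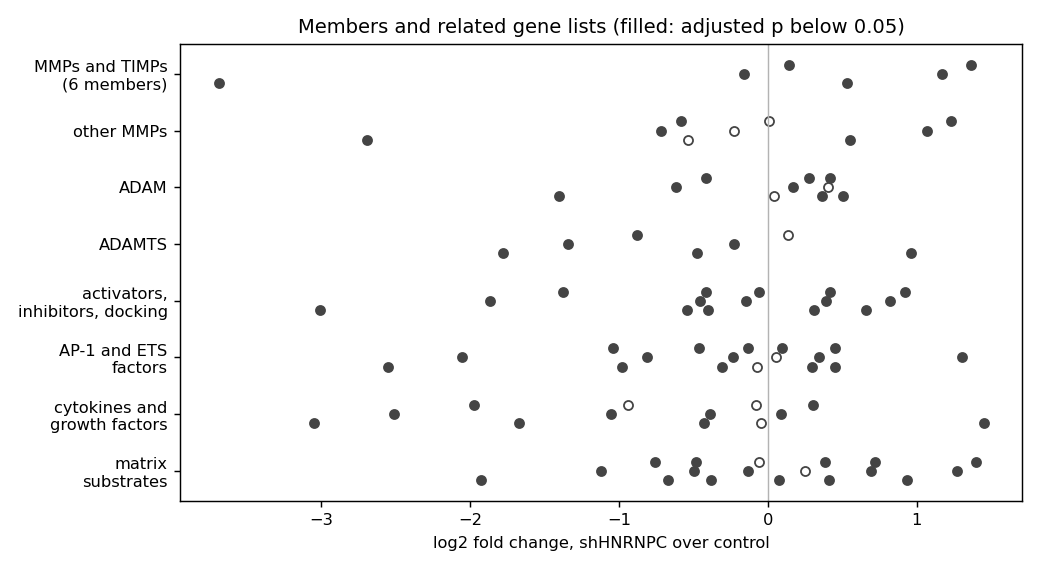
Log2 fold change (shHNRNPC over control, horizontal axis) of the 6 tested members and of the tested genes of 7 related lists, 1 point per gene, with filled points for edgeR adjusted p below 0.05 and open points for the rest; vertical offsets within a row only separate points. Every list holds genes on both sides of 0, and the farthest to the left are TIMP3 (-3.69) among the members, AREG (-3.05) among growth factors and SPOCK1 (-3.01) among binding partners.

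Genes that activate, inhibit or dock MMPs were tested in 15 of 20 cases, with 6 higher, 9 lower and a median of -0.15. Of all genes tested, 38.7% were higher and 38.6% lower, and the list was not tested against that share. Lower in shHNRNPC were SPOCK1 (-3.01), a matrix proteoglycan, and LCN2 (-1.37), which binds MMP9. ST14, the membrane serine protease matriptase, rose (0.92, with 354 ± 4.74 CPM in shHNRNPC and 187 ± 6.19 CPM in control libraries). RECK, a membrane-anchored MMP inhibitor, had 1 count over the 8 libraries.

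Transcription factors known to act on MMP promoters were tested in 17 of 20 cases, with 6 higher, 9 lower and a median of -0.13. The counts of this list and of those that follow stand beside 38.7% higher and 38.6% lower among all genes tested. The ETS factors ETV1 (-2.55), ETV5 (-2.05) and ETV4 (-1.04) fell. ETV1 had only 10, 16, 13 and 4 counts in shHNRNPC replicates 1 to 4. It passed the filter on low counts through the control group, in which it is high. FOS, a subunit of AP-1, rose (7.45 ± 0.745 CPM in shHNRNPC and 3.02 ± 0.767 CPM in control libraries). More abundant AP-1 subunits fell, among them JUN (-0.81, with 112 ± 1.076 CPM in shHNRNPC and 196 ± 1.88 CPM in control libraries), JUND (-0.46) and FOSL1 (-0.24), while FOSL2 rose (0.099). The ETS factors ELF3 and ELK1 both rose (0.45 each), with 18.5% of the exon bases of ELF3 overlapping other genes. Cytokines and growth factors that induce MMPs were tested in 13 of 17 cases, with 3 higher, 7 lower and a median of -0.43. They included falls of AREG (-3.05), IL1B (-2.51, with 18.1 ± 1.53 CPM in shHNRNPC and 103 ± 3.57 CPM in control libraries), IL11 (-1.97) and HBEGF (-1.67). The 3 that rose were IL6 (1.45, with 34.9 ± 1.99 CPM in shHNRNPC and 12.7 ± 0.563 CPM in control libraries), with 20.7% of its exon bases overlapping other genes, TGFB1 (0.30) and TGFB2 (0.090). For TGFB2 the CPM ranges of the groups overlapped, the call was not kept in every alternative, and 26.6% of its exon bases overlap other genes. Among matrix and cell-surface substrates of MMPs, 8 of 18 tested rose and 8 fell, with a median of 0.0081. Tenascin C, TNC (-1.92), fell, and the collagen chains COL4A1 (1.40) and COL1A1 (1.27) rose.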

How the data were processed

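The authors deposited raw read counts per gene for 8 libraries, not normalised. RNA came from a TRIzol extraction and went into VAHTS Universal libraries, per the labels' protocols. Reads were cleaned with fastp per the series design text. The submitters' processing notes name hg38 as the build. Which aligner, counter, annotation and strand option were used is not given in the sources used here.

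Groups follow the genotype label. Genes were kept with filterByExpr (minimum count 10, minimum total 15), scaled with TMM and tested with edgeR 4.0.16 (glmQLFit with robust estimation, glmQLFTest, group term alone, R 4.3.3) across all genes. SE is the absolute log2 fold change over the square root of F. Alternatives used DESeq2 1.42.0, other scaling and filters, and fewer libraries. The members and lists were chosen with earlier results of these data known, so list counts are descriptions. Genes named were the members, HNRNPC, up to 4 called genes of each list with the largest change and at least 1 CPM, the 3 most abundant markers and the nearest profiles; MMP3, MMP16, MMP17, RECK, IL6, TGFB1, TGFB2, JUN, JUND, FOSL1, FOSL2, ELF3, ELK1, TMEM123 and DCUN1D5 were added after their values were seen, and some genes that the rule names are not reported here. The fit was checked on simulated counts. Chi-square comparisons of replicate counts gave 2.66 to 3.70 per degree of freedom, so none was a repeat of another. Promoters were read 250 bases before the start, without the 50 bases after it that the plan had included, to leave out 5' UTRs; GC boxes and CpG were added after the sequences were seen. Ratios of low counts have exact binomial intervals, for counting error only.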

Additional observations from a re-analysis of the deposited data

Results flagged for a closer look

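Of 124 sets of 4 libraries examined for a library far from the other 3, 10 had one, and chance gives about 1 in 20. Among members, TIMP1 was low in shHNRNPC replicate 2 (100.3 CPM, the others at 103 CPM). TIMP2 was low in shHNRNPC replicate 3 (177 CPM, against 181 CPM) and in control replicate 2 (117 CPM, against 126 to 127 CPM). At single reads, MMP10 was counted among shHNRNPC libraries in replicate 4 alone (0.0335 CPM), and MMP13 was at 0 CPM among them in replicate 2 alone. The ratio of MMP15 to MMP14 (0.0877, the others 0.0829 to 0.0837) and the share of MMP15 in the summed MMP level (8.05%, the others 7.64% to 7.71%) were high in shHNRNPC replicate 2. The summed MMP level was high in control replicate 2 (93.3 CPM per kb, the others 90.0 to 90.4). Outside the members, ST14 was low in shHNRNPC replicate 1 (347 CPM, the others 356 to 358 CPM) and IL11 was high in shHNRNPC replicate 3 (6.58 CPM, the others 4.66 to 4.96 CPM).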

How the results depend on the processing

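Under 16 other fits the counts of all genes ranged from 4354 to 4698 higher and 4386 to 4916 lower. Of 110 fold changes of HNRNPC and the tested members, 109 kept their direction and call, none reversed, and 1 (MMP25 without shHNRNPC replicates 2 and 3, 1.22) lost its call. The filter of at least 1 CPM left MMP25 and TIMP3 untested, so that 3 members were called higher and 1 lower. Leaving out 1 library at a time gave 4 members higher and 2 lower each time, with log2 fold changes of 1.13 to 1.22 for MMP15 and -3.88 to -3.45 for TIMP3. With exon union length the TIMP1 to MMP14 level reversed in shHNRNPC libraries (-0.28 on the log2 scale, against 0.25) and shrank to 0.030 in control libraries, against 0.56; this alternative was chosen after seeing the data. With the replicate number as a block 4605 genes were higher and 4614 lower, and no member's call changed. Same-numbered libraries did not deviate together (correlations -0.0552 to 0.0170, and 1 of 4 shHNRNPC libraries correlated best with its own number), so the numbers give no pairing. Depth limits MMP1, MMP9, MMP10 and MMP13 most, where a few reads set each value.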

Other observations

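The neighbouring metalloproteinase families also held genes of both directions, beside 38.7% higher and 38.6% lower among all genes tested. ADAM proteases, which shed growth factor precursors and receptors, were tested in 10 of 13 cases, with 5 higher, 3 lower and a median log2 fold change of 0.22. ADAM17, the sheddase that TIMP3 inhibits, fell (-0.41, with 122 ± 3.98 CPM in shHNRNPC and 163 ± 2.61 CPM in control libraries; edgeR adjusted p = 8.6e-23), and ADAM10, which shares many of its substrates, rose by about the same amount (0.42, with 161 ± 3.34 CPM in shHNRNPC and 120 ± 2.41 CPM in control libraries; edgeR adjusted p = 2.85e-23). Of the exon bases of ADAM17, 13.6% overlap other genes. ADAM8 fell (-0.62) and ADAM19 rose (0.50).

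Of the secreted ADAMTS proteases, 7 of 18 were tested, with 1 higher, 5 lower and a median of -0.47. The shares over all genes tested were 38.7% higher and 38.6% lower. ADAMTS13, which cleaves von Willebrand factor (-1.78), ADAMTS20 (-1.34) and ADAMTS6 (-0.88, with 19.1 ± 1.49 CPM in shHNRNPC and 35.0 ± 2.24 CPM in control libraries) fell, and ADAMTS15 rose (0.96).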
